A study of Homo sapiens with 10 samples.

Results

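The genes described here build the motile cilium and the sperm flagellum, and were followed in Panc1 cells, an established line of human pancreatic carcinoma epithelium, after forced expression of the transcription factor KLF11. The set lists 51 genes, nearly all for parts of the axoneme, and includes the regulator FOXJ1 and FAM221A, for which no ciliary role is given here. It was chosen by measured values of the same arrays, since the large changes of several of its genes against empty vector were known when the list was drawn up, so their changes against empty vector are given as a description without a test. A gene is represented by the transcript cluster (the probe group that stands for a gene) that carries its symbol alone and has the highest mean over all arrays. By this rule 50 of the 51 genes were measured, out of 18377 genes with such a cluster. ROPN1, a sperm protein close in sequence to ROPN1B, is read only by clusters that carry both names and has no value here.

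The axoneme is the microtubule core of a cilium or flagellum, a ring of doublets around a central pair. Outer and inner dynein arms make the doublets slide, and the nexin-dynein regulatory complex, the radial spokes and the central pair apparatus turn sliding into a controlled beat. FOXJ1 is the forkhead factor that switches on this programme in multiciliated cells, and RFX factors act with it through promoter elements called X-boxes. Cells of the pancreatic duct normally carry a primary cilium, which has no beat and lacks dynein arms.

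Panc1 cultures were transduced for 48 h, at a multiplicity of infection of 150, with adenovirus for wild type KLF11, for 1 of 3 mutants or for nothing. The mutants were A347S, Δ486 and EAPP, which the study describes as uncoupling KLF11 from WD40 proteins, from HP1 with histone methyltransferases, and from Sin3 with histone deacetylases. All 4 proteins carried an epitope tag, and the control was empty vector (EV, Ad5CMV). RNA pooled from 3 cultures was read on 2 arrays per group, 10 in all, which the methods call technical duplicates although the sample titles number them as biological. Errors therefore measure the spread between arrays and may leave out the variation between cultures.

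Values are log2 expression, on which a difference of 1 is a 2-fold change. Changes come from a linear model over all 10 arrays (limma), and "called" means a Benjamini-Hochberg adjusted p under 0.05 over 20961 clusters together with a change of at least 1.5-fold. The median standard error of a change was 0.095, and each gene's own standard error (SE) is given below. The array medians lay between 6.81 and 6.87. The cluster of KLF11, the transduced gene, lay between 8.68 and 8.88 over the 8 construct arrays, and at 8.37 and 7.75 on the EV arrays, which were thus apart from each other and below all the others. Among the duct and simple epithelium markers, KRT8 lay between 12.18 and 12.71 and KRT18 between 12.81 and 13.25 over the 10 arrays, EPCAM between 8.32 and 8.78, and SOX9 between 8.13 and 8.52. The level of 1 probe set cannot be compared with that of another on this platform.

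Promoters are shown for 6 genes because they carry the largest rises of the set, its single fall and an X-box. Each run is the 250 bases before the RefSeq start site, 5′ to 3′ on the strand of the gene, from build GRCh38.p14. Capitals mark GC boxes (GGGCGG, or CCGCCC where the match is on the opposite strand), the kind of GC-rich element that KLF factors bind, and X-box elements.
The stretches are chr5:10441629-10441878 (plus strand) for ROPN1L, chr10:104232365-104232614 (minus strand) for CFAP43, chr15:82262568-82262817 (plus strand) for SAXO2, chr1:85062077-85062326 (plus strand) for DNAI3, chr1:217631094-217631343 (plus strand) for SPATA17 and chr7:23679949-23680198 (plus strand) for FAM221A.
ROPN1L: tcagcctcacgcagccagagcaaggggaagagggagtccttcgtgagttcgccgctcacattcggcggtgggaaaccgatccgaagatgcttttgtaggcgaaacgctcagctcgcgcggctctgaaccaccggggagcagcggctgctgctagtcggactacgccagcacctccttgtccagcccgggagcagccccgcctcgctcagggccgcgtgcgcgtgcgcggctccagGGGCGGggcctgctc
CFAP43: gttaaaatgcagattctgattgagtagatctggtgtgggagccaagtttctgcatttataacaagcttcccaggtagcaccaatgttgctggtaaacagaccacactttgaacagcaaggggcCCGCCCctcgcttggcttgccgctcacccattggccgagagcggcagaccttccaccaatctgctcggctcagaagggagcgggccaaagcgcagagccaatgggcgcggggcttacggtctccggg
SAXO2: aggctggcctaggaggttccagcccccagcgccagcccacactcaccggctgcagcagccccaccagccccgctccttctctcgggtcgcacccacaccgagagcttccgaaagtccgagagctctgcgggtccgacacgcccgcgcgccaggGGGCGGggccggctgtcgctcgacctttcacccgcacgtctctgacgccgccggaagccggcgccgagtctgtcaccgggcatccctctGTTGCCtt
DNAI3: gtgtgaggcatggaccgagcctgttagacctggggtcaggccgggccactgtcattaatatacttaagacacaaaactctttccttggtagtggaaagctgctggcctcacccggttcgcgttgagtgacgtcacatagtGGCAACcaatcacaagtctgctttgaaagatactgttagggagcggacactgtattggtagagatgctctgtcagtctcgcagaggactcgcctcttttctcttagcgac
SPATA17: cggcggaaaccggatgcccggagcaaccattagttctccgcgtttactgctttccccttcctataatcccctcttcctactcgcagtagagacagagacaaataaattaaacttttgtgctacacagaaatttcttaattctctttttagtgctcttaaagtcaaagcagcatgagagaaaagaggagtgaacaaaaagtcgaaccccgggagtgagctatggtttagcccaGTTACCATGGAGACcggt
FAM221A: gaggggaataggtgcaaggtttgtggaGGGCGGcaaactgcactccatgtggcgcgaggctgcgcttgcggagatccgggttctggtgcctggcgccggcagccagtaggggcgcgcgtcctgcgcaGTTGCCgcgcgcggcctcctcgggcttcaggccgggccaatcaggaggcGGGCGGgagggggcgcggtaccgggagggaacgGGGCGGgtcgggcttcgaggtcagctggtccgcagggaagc

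ROPN1L has a GC box whose first base lies 15 bases before the start. SAXO2 has 1 at 97 bases, and CFAP43 has 1 at 127 bases on the opposite strand. FAM221A, the gene that fell, has 3, at 223, 74 and 41 bases. In the DNAI3 and SPATA17 stretches no GC box is in capitals because these letters do not occur there. DNAI3 has an X-box core (GTTGCC) on the opposite strand at 110 bases, SAXO2 has 1 at 8 bases and FAM221A has 1 at 123 bases. SPATA17 has a spaced X-box at 18 bases, in capitals above, which is the letters GT, CC, G and AC in this order with 2, 3 and 2 unspecified letters between them, and which reads on both strands.

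Promoter windows of 300 bases, from 250 before to 50 after the start, were found for 41 of the 50 measured genes, including all 13 that were called with at least 1 construct. Both strands were searched. A GC box was present in 84.6% of the 13 called genes, in 67.9% of the 28 others and in 44.6% of all 27305 promoters of the table. The CACCC box (CACCC), another KLF element, was in 69.2% of the called genes, 50% of the others and 58.9% of all promoters. The X-box core stood in 30.8% of the called genes, 46.4% of the others and 12.2% of all promoters, and the spaced X-box, which can contain the core, in 15.4% of the called genes, 39.3% of the others and 4.81% of all promoters. The forkhead element GTAAACA was in 7.69% of the called genes, 7.14% of the others and 3.41% of all promoters. Median GC content was 60.7% in the called genes, 62.5% in the others and 58.3% in all promoters. Over the 41 windows together the X-box core had a share of 41.5% and the spaced X-box of 31.7%, both above those of all promoters. No test was run on these shares, and a match of letters is no measured binding site.

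With wild type KLF11, 12 of the 50 measured genes rose and 1 fell, or 26.0% called, against 3.99% of all clusters tested (2.21% rose and 1.78% fell). With A347S, 11 rose and 1 fell, or 24% called, against 8.98% of all clusters (3.63% rose, 5.35% fell). With Δ486, 11 rose and 1 fell, or 24% called, against 5.61% (2.38% rose, 3.23% fell). With EAPP, none was called, against 0.00477% of clusters (0.00477% rose, 0% fell), and the transduced gene KLF11 itself missed the threshold there. At an unadjusted p under 0.05, limma counted 16 of the 50 genes (32%) with wild type KLF11, against 29.4% of all clusters. It counted 22 (44%) with A347S, against 37.6%, 22 (44%) with Δ486, against 34.3%, and 4 (8%) with EAPP, against 8.73%. With EAPP, limma with trend and robust moderation called 1, CFAP43, and the model without moderation called 0. A plain test of 2 arrays against 2 called 0 of all clusters in every comparison and says nothing about the genes. Since the set was drawn up from these contrasts, nothing is read from the difference to the background. The median change over the 50 genes was 0.09 with wild type KLF11, against -0.02 over all clusters. It was 0.16 with A347S, against 0.01, then 0.14 with Δ486, against 0.02, and 0.07 with EAPP, against 0.00. Most genes of the set therefore moved little, and the calls came from a minority.

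Both construct arrays lay above both EV arrays for 22 of the 50 genes with wild type KLF11, against 24.9% of all clusters. They lay below for 5 of the 50, against 32.7%. For A347S these counts were 29 of 50 above, against 31.4% of clusters, and 4 of 50 below, against 32.2%. For Δ486 they were 29 of 50, against 32.1%, and 4 of 50, against 29.6%. For EAPP they were 16 of 50, against 18.2%, and 6 of 50, against 21.1%. As with the calls, nothing is read from the difference to the background.

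**Figure D1:**
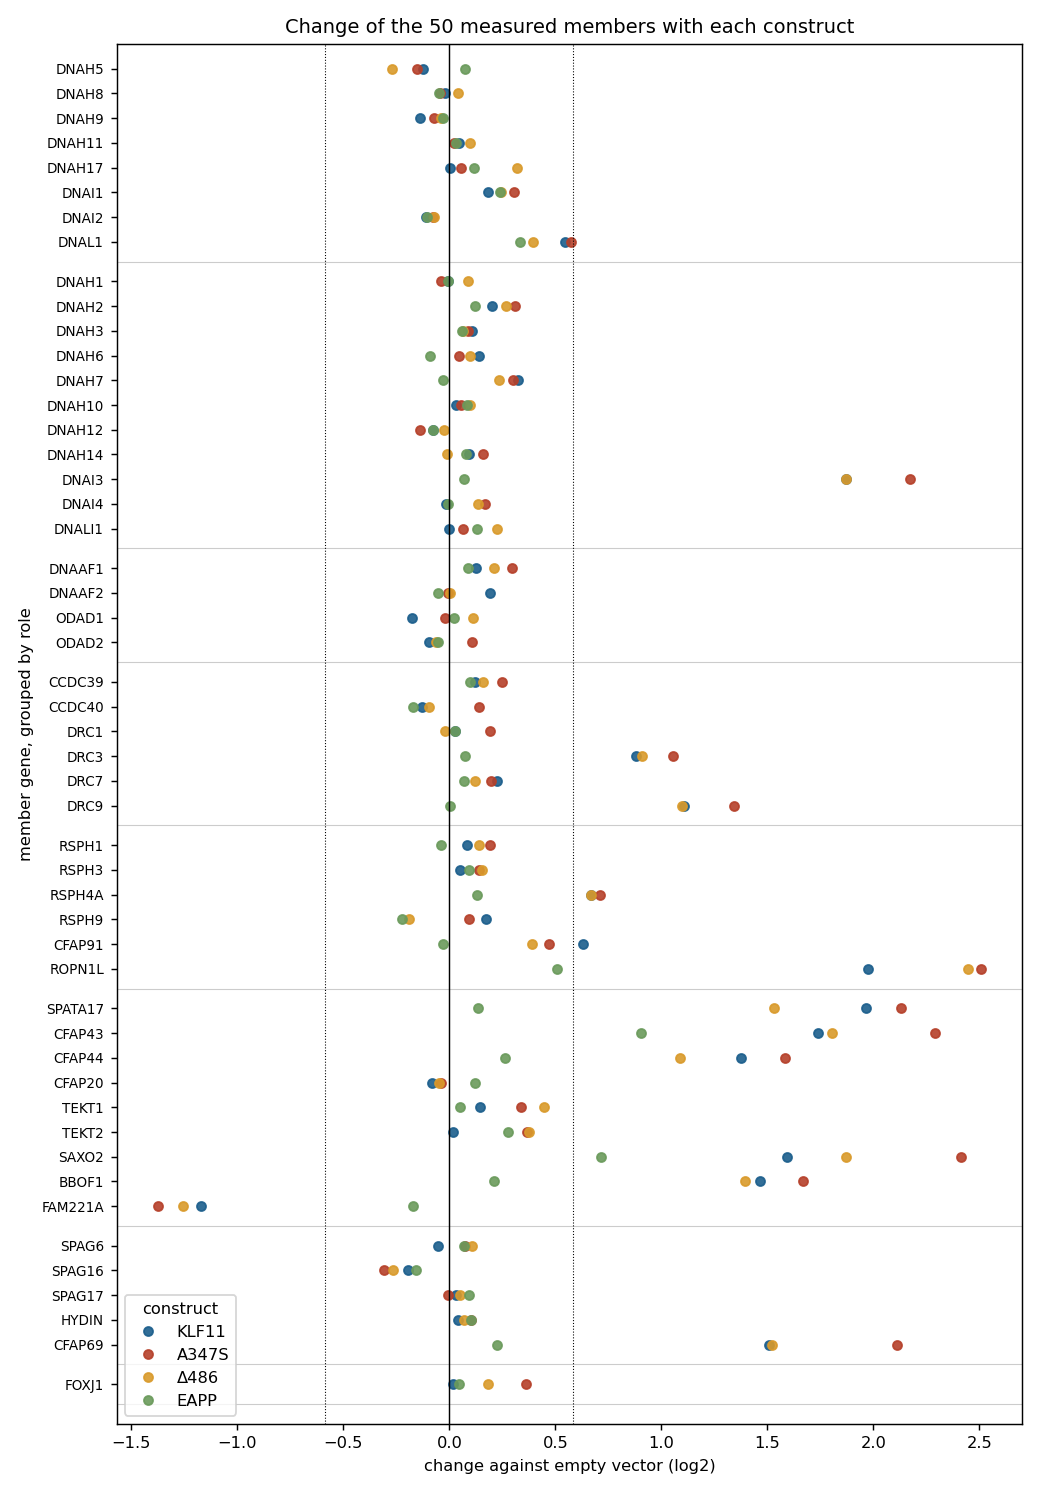
Change of each of the 50 measured genes against empty vector, on the log2 scale, with wild type KLF11, A347S, Δ486 and EAPP as points and genes grouped by role. Dotted lines mark 1.5-fold. ROPN1L reached 2.51 with A347S and FAM221A stood at -1.37, while most genes lay between the dotted lines with every construct.

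Outer dynein arms supply most of the sliding force. None of their 8 subunits (DNAH5, DNAH8, DNAH9, DNAH11, DNAH17, DNAI1, DNAI2 and DNAL1) was called with any construct. The called share of all clusters was 3.99% for wild type KLF11, 8.98% for A347S, 5.61% for Δ486 and 0.00477% for EAPP. For 8 genes, 0 calls is near these shares, and nothing is read from it. Their changes ran from -0.14 to 0.55 with wild type KLF11, from -0.15 to 0.57 with A347S, from -0.27 to 0.40 with Δ486 and from -0.11 to 0.33 with EAPP. The highest value with each construct was that of DNAL1, a light chain, just short of 1.5-fold with A347S. The lowest was that of DNAH5, a heavy chain, with A347S and Δ486. Genes for assembly and docking of dyneins did not pass the threshold either, and for 4 genes this too is near those shares. DNAAF1, DNAAF2, ODAD1 and ODAD2 lay between -0.18 and 0.29 with all 4 constructs.

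Inner arms and their relatives set the shape of the beat. Of 11 genes, DNAI3 alone rose, or 9.09%, with each of wild type KLF11, A347S and Δ486. The share of all clusters that rose was 2.21% for wild type KLF11, 3.63% for A347S and 2.38% for Δ486. Roles were chosen with results known, so the shares of role groups are a description. DNAI3 encodes an intermediate chain of the inner arm dynein that has a pair of motor heads. It read 6.86 and 6.79 with wild type KLF11, 7.29 and 6.96 with A347S, 6.69 and 6.95 with Δ486, 5.10 and 4.94 with EAPP, and 4.90 and 5.0 with EV. Arrays of wild type KLF11, A347S and Δ486 were all above EV, and those of EAPP overlapped EV. The changes were 1.87 for wild type KLF11, 2.17 for A347S, 1.87 for Δ486 and 0.07 for EAPP (SE 0.12). DNAI4, the partner intermediate chain of the same dynein, stood at -0.02 for wild type KLF11, 0.17 for A347S, 0.13 for Δ486 and -0.01 for EAPP. The motor subunits DNAH1, DNAH2, DNAH3, DNAH6, DNAH7, DNAH10, DNAH12 and DNAH14 and the light intermediate chain DNALI1 lay between -0.14 and 0.32. DNAH7 was highest of these with wild type KLF11, at 0.32, and DNAH2 with A347S, at 0.31.

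The nexin-dynein regulatory complex links neighbouring doublets, and CCDC39 with CCDC40 forms the ruler that sets its spacing. Of these 6 genes, DRC3 and DRC9 rose with 3 constructs, or 33.3% with each. The share of all clusters that rose was 2.21% for wild type KLF11, 3.63% for A347S and 2.38% for Δ486. DRC9, a calmodulin-binding subunit also known as IQCG, read 7.87 and 7.61 with wild type KLF11, 7.93 and 8.02 with A347S, 7.65 and 7.81 with Δ486, 6.68 and 6.6 with EAPP, and 6.55 and 6.72 with EV. DRC3 read 6.69 and 6.69 with wild type KLF11, 6.78 and 6.94 with A347S, 6.79 and 6.63 with Δ486, 5.89 and 5.86 with EAPP, and 6.05 and 5.56 with EV. For both, the EAPP arrays lay inside the EV range and the other 6 construct arrays stood above it. The changes of DRC9 were 1.11 for wild type KLF11, 1.34 for A347S, 1.10 for Δ486 and 0.01 for EAPP (SE 0.11). Those of DRC3 were 0.88 for wild type KLF11, 1.05 for A347S, 0.91 for Δ486 and 0.07 for EAPP (SE 0.14). CCDC39, CCDC40, DRC1 and DRC7 of the same structures lay between -0.17 and 0.25 and were not called.

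Radial spokes carry signals from the central pair to the dynein arms. Of the 6 spoke or spoke-associated genes measured, 3 rose with wild type KLF11 (50%, against 2.21% of all clusters). With each of A347S and Δ486 2 rose (33.3%, against 3.63% with A347S and 2.38% with Δ486). Roles were chosen with results known, so nothing is read from these shares. The largest change was that of ROPN1L, a protein with a docking domain like that of protein kinase A, found in spokes and in the sperm fibrous sheath. It read 8.01 and 7.84 with wild type KLF11, 8.38 and 8.55 with A347S, 8.35 and 8.44 with Δ486, 6.41 and 6.52 with EAPP, and 5.81 and 6.10 with EV. All construct arrays were above both EV arrays, those of EAPP least. The changes were 1.97 for wild type KLF11, 2.51 for A347S, 2.45 for Δ486 and 0.51 for EAPP (SE 0.11).

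RSPH4A, a spoke head subunit that is mutated in primary ciliary dyskinesia, read 5.05 and 5.32 with wild type KLF11, 5.21 and 5.25 with A347S, 5.17 and 5.20 with Δ486, 4.61 and 4.70 with EAPP, and 4.41 and 4.63 with EV. The changes were 0.67 for wild type KLF11, 0.71 for A347S, 0.67 for Δ486 and 0.13 for EAPP (SE 0.11), near the 1.5-fold line. Without the first EV array, the RSPH4A change was 0.55 for wild type KLF11 and 0.55 for Δ486, and neither was called, and without the second wild type array it stood at 0.53 and was not called. CFAP91, at the base of a spoke, read 4.58 and 4.51 with wild type KLF11, 4.50 and 4.27 with A347S, 4.22 and 4.40 with Δ486, 3.88 and 3.89 with EAPP, and 3.88 and 3.96 with EV. It was called with wild type KLF11 (0.63, SE 0.10), and its change was 0.47 for A347S, 0.39 for Δ486 and -0.03 for EAPP. The other spoke genes, RSPH1, RSPH3 and RSPH9, lay between -0.22 and 0.19.

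The next group was mixed. It held proteins of the doublets, dynein tether and basal body, other flagellar proteins, and FAM221A, for which no ciliary role is given. Of its 9 genes, 5 rose and 1 fell, or 66.7% called, under each construct except EAPP, where none was called. The called share of all clusters was 3.99% for wild type KLF11, 8.98% for A347S and 5.61% for Δ486. Roles were chosen with results known, and SPATA17 joined this group after its values were seen. The group's count is therefore not ranked against those of other groups. CFAP43 and CFAP44 form the tether that holds the inner dynein with its pair of heads, as described in the ciliate Tetrahymena, and both are mutated in men with malformed sperm flagella. CFAP43 read 5.99 and 6.03 with wild type KLF11, 6.56 and 6.56 with A347S, 5.91 and 6.25 with Δ486, 5.37 and 4.98 with EAPP, and 4.17 and 4.37 with EV. CFAP44 read 6.66 and 6.72 with wild type KLF11, 6.93 and 6.88 with A347S, 6.22 and 6.59 with Δ486, 5.23 and 5.92 with EAPP, and 5.37 and 5.26 with EV. The EAPP arrays of CFAP43 thus stood clear of EV, whereas those of CFAP44 were apart from each other and spanned it. The changes of CFAP43 were 1.74 for wild type KLF11, 2.29 for A347S, 1.8 for Δ486 and 0.90 for EAPP (SE 0.14). Those of CFAP44 were 1.37 for wild type KLF11, 1.58 for A347S, 1.09 for Δ486 and 0.26 for EAPP (SE 0.19).

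SAXO2, a microtubule-stabilizing protein of the axoneme, read 6.49 and 6.50 with wild type KLF11, 7.35 and 7.29 with A347S, 6.57 and 6.98 with Δ486, 5.42 and 5.82 with EAPP, and 4.57 and 5.24 with EV. SPATA17, a protein with calmodulin-binding motifs, read 7.29 and 7.0 with wild type KLF11, 7.21 and 7.41 with A347S, 6.57 and 6.85 with Δ486, 5.32 and 5.30 with EAPP, and 5.58 and 4.78 with EV. BBOF1, which orients basal bodies, read 6.23 and 6.11 with wild type KLF11, 6.31 and 6.44 with A347S, 5.94 and 6.26 with Δ486, 4.87 and 4.97 with EAPP, and 4.76 and 4.66 with EV. All 3 were higher on every array of wild type KLF11, A347S and Δ486 than on EV, though the EV arrays of SPATA17 and SAXO2 differed more from each other than those of BBOF1. The changes of SAXO2 were 1.59 for wild type KLF11, 2.41 for A347S, 1.87 for Δ486 and 0.71 for EAPP (SE 0.21). Those of SPATA17 were 1.97 for wild type KLF11, 2.13 for A347S, 1.53 for Δ486 and 0.13 for EAPP (SE 0.22). Those of BBOF1 were 1.47 for wild type KLF11, 1.67 for A347S, 1.39 for Δ486 and 0.21 for EAPP (SE 0.11). The EAPP arrays of SAXO2 and BBOF1 were above both EV arrays, and those of SPATA17 lay between them.

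FAM221A was the single gene that fell. It read 6.52 and 6.37 with wild type KLF11, 6.22 and 6.26 with A347S, 6.23 and 6.49 with Δ486, 7.51 and 7.38 with EAPP, and 7.54 and 7.68 with EV. The changes were -1.17 for wild type KLF11, -1.37 for A347S, -1.26 for Δ486 and -0.17 for EAPP (SE 0.10), and the EAPP arrays were below both EV arrays by a small margin. TEKT1 and TEKT2, filament proteins inside the doublets, were not called. TEKT1 stood at 0.14 for wild type KLF11, 0.34 for A347S, 0.45 for Δ486 and 0.05 for EAPP, and TEKT2 at 0.02 for wild type KLF11, 0.37 for A347S, 0.38 for Δ486 and 0.28 for EAPP. CFAP20, a doublet protein that primary cilia also need, lay between 9.15 and 9.40 on all 10 arrays, and its changes were -0.08 to 0.12.

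The central pair apparatus regulates the plane of the beat. Of its 5 genes, CFAP69 alone was called, or 20%, with each of wild type KLF11, A347S and Δ486. The called share of all clusters was 3.99% for wild type KLF11, 8.98% for A347S and 5.61% for Δ486. CFAP69, a central pair protein needed for mouse sperm flagella, read 6.30 and 5.87 with wild type KLF11, 6.74 and 6.63 with A347S, 5.73 and 6.46 with Δ486, 4.69 and 4.91 with EAPP, and 4.49 and 4.66 with EV. The Δ486 arrays were far apart but both above EV. The changes were 1.51 for wild type KLF11, 2.11 for A347S, 1.52 for Δ486 and 0.23 for EAPP (SE 0.21). SPAG6, SPAG16, SPAG17 and HYDIN, the other central pair genes, were not called and lay between -0.31 and 0.11, with SPAG16 lowest with each construct.

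FOXJ1, the regulator in the set, read 5.94 and 6.10 with wild type KLF11, 6.23 and 6.50 with A347S, 6.24 and 6.12 with Δ486, 6.05 and 6.05 with EAPP, and 6.01 and 5.99 with EV. With wild type KLF11 the arrays lay on both sides of EV, and with A347S, Δ486 and EAPP they were above. The changes were 0.02 for wild type KLF11, 0.36 for A347S, 0.18 for Δ486 and 0.05 for EAPP (SE 0.10), so none reached 1.5-fold. Without the fold threshold FOXJ1 was called with A347S, as were 28.4% of all clusters.

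**Figure D2:**
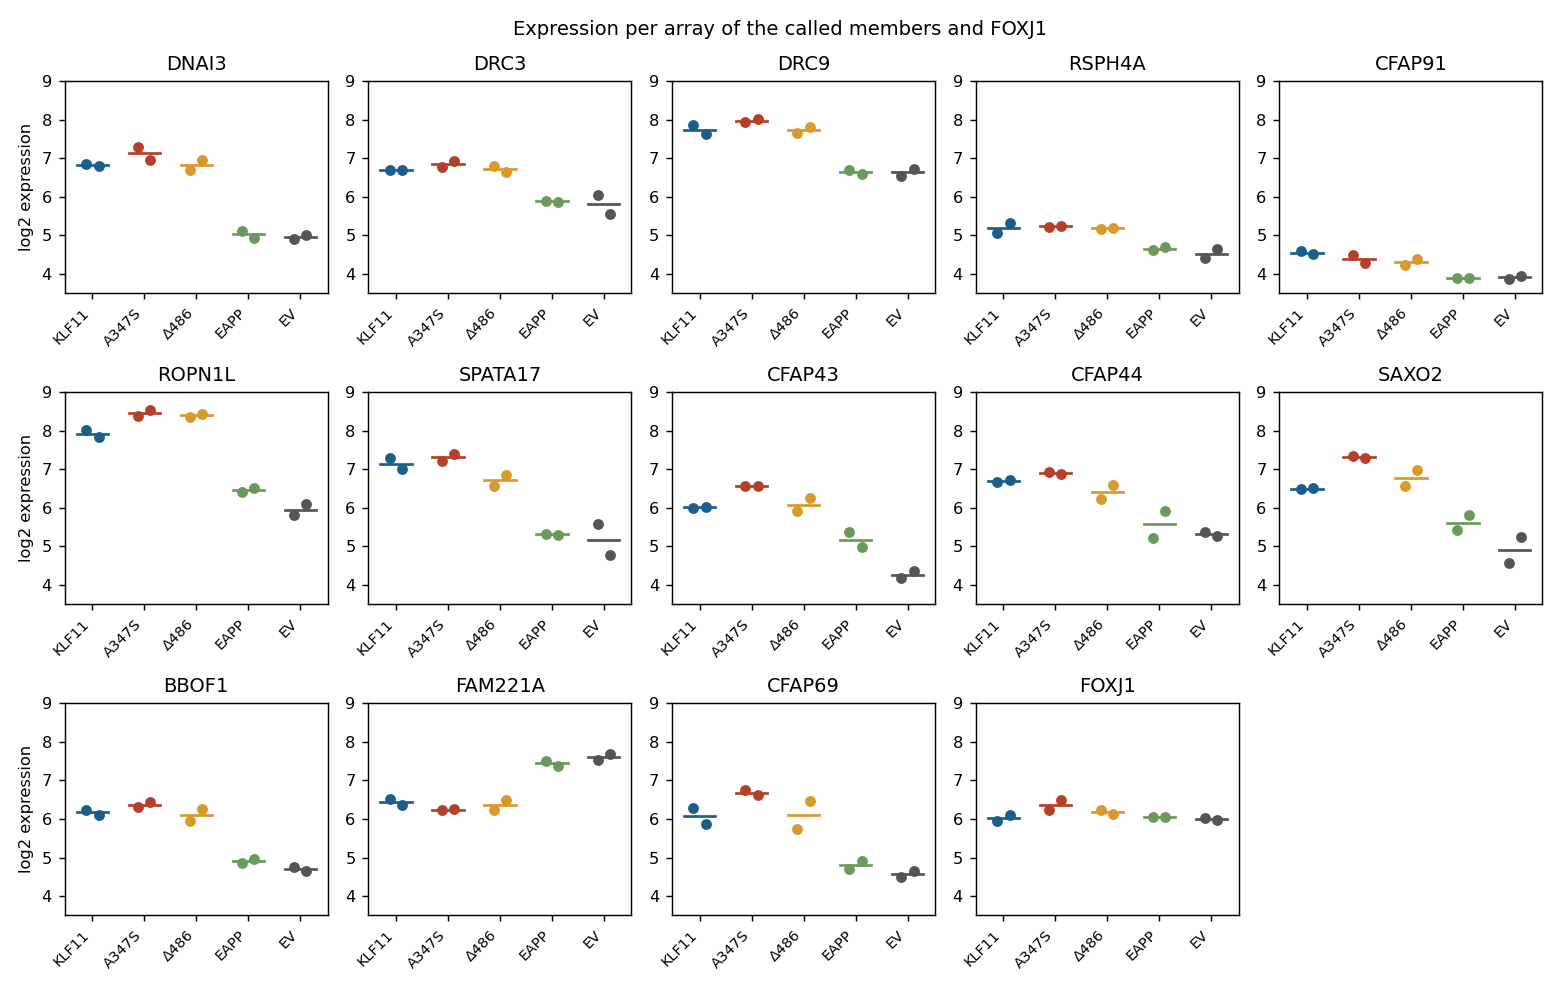
Expression (log2) of the 13 genes called with at least 1 construct and of FOXJ1 on each of the 10 arrays, with wild type KLF11, A347S, Δ486, EAPP and EV from left to right. Points are arrays and lines the mean of 2. ROPN1L read 8.01 and 7.84 with wild type KLF11 and 5.81 and 6.10 with EV, and FAM221A ran the other way.

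The mutants were also compared with wild type KLF11 directly. These arrays were in the contrasts known when the set was chosen. The p-values and intervals of these comparisons, and of A347S against Δ486, are therefore a description and no independent test. For A347S none of the 50 genes was called, against 0% of all clusters. At an unadjusted p under 0.05 limma counted 10 (20%), against 14.4% of clusters. Trend moderation and the unmoderated model called 0 of the 50 as well. The largest difference was in SAXO2, 0.82 higher with A347S than with wild type KLF11 (95% interval ±0.48, Benjamini-Hochberg adjusted p = 0.189 in limma). CFAP69 was 0.60 higher (±0.48, adjusted p = 0.265 in limma), CFAP43 0.55 higher (±0.32, adjusted p = 0.185) and ROPN1L 0.54 higher (±0.25, adjusted p = 0.167). TEKT2 was 0.35 higher (±0.25), and FOXJ1 was 0.35 higher (±0.22, adjusted p = 0.204 in limma).

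For Δ486 against wild type KLF11 none was called either, against 0% of clusters. There were 7 genes (14%) at an unadjusted p under 0.05 in limma, against 10.5% of clusters. Trend moderation called 0, and so did the model without moderation. ROPN1L was 0.47 higher with Δ486 (±0.25, adjusted p = 0.321 in limma), TEKT2 0.36 higher (±0.25), DNAH17 0.32 higher (±0.25) and TEKT1 0.30 higher (±0.19). SPATA17 stood at -0.43 (±0.49), RSPH9 at -0.36 (±0.35), and DNAI3 at 0.00 (±0.28). Between A347S and Δ486, none was called, against 0% of clusters, and again trend moderation and the unmoderated model called 0. There were 10 genes (20%) at an unadjusted p under 0.05 in limma, against 7.43% of clusters. SPATA17 was 0.60 higher with A347S than with Δ486 (±0.49), CFAP69 0.59 higher (±0.48), SAXO2 0.54 higher (±0.48), CFAP44 0.50 higher (±0.43) and CFAP43 0.48 higher (±0.32, adjusted p = 0.642 in limma). Intervals of the 13 called genes reached ±0.21 to ±0.49, so differences of that size could not be separated, and the missed threshold does not show that these mutants act as the wild type does.

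EAPP against wild type KLF11 shares the wild type arrays with the contrast on which the set was chosen, so it is described without a test. Of the 50 genes, 11 were lower with EAPP and 1 higher by the same threshold, or 24% called. Of all clusters 2.51% were called (0.763% higher and 1.75% lower). The lowest value was that of SPATA17, with a difference (EAPP minus wild type KLF11) of -1.83 (SE 0.22). DNAI3 stood at -1.8 (SE 0.12), ROPN1L at -1.46 (SE 0.11), CFAP69 at -1.28 (SE 0.21) and BBOF1 at -1.25 (SE 0.11). CFAP44 stood at -1.11, DRC9 at -1.10, SAXO2 at -0.88, CFAP43 at -0.84, DRC3 at -0.81 and CFAP91 at -0.66. FAM221A was 1.00 higher (SE 0.10). RSPH4A, at -0.54, did not reach 1.5-fold. With 1 array left out, SAXO2 ran from -1.08 to -0.67 and CFAP69 from -1.50 to -1.07. DRC3 then ran from -0.82 to -0.79 and RSPH4A from -0.67 to -0.40. The calls of SAXO2, CFAP69 and DRC3 did not hold in all of these fits, that of SAXO2 least often. RSPH4A passed the threshold only without the first wild type array.

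**Figure D3:**
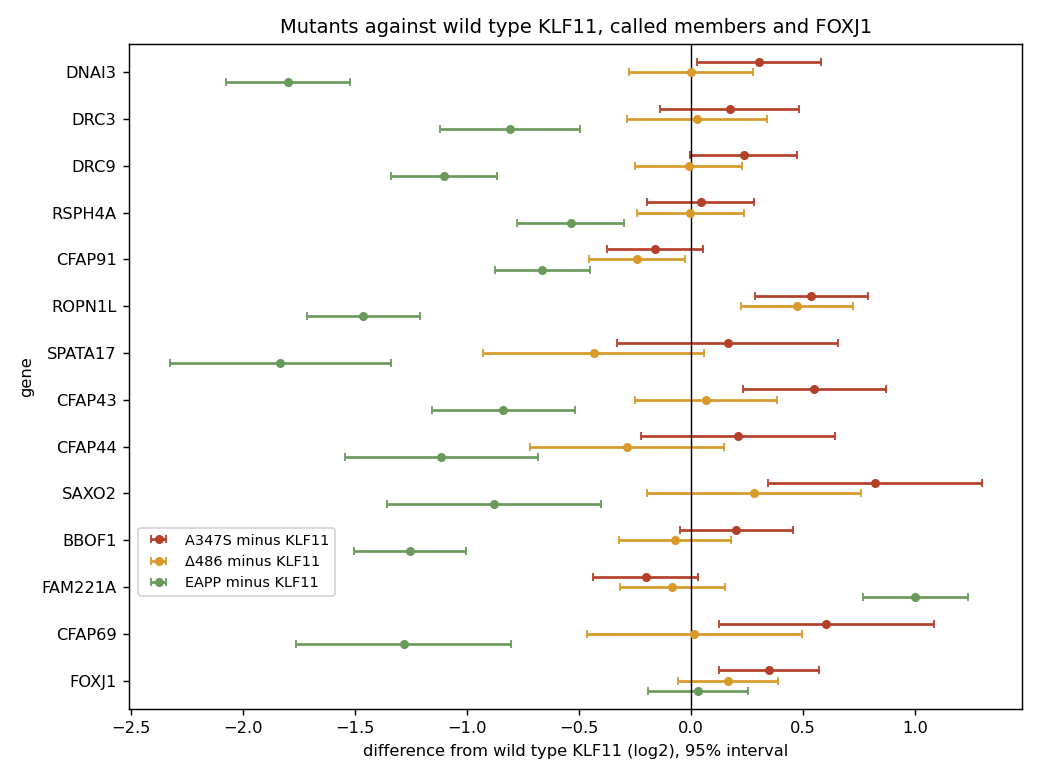
Difference of A347S, Δ486 and EAPP from wild type KLF11 on the log2 scale for the 13 called genes and FOXJ1, with 95% intervals as bars. EAPP lay below the wild type for 12 genes, with DNAI3 at -1.8, and above it for FAM221A at 1.00 and FOXJ1 at 0.03, while most intervals of Δ486 included 0.

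Beyond the set, 114 of 127 other listed axoneme genes were measured. With wild type KLF11, 10 rose and 1 fell, or 9.65% called, against 3.99% of all clusters. A347S gave 17 and 3, or 17.5% against 8.98%, and Δ486 gave 8 and 1, or 7.89% against 5.61%, which is near the background. EAPP gave 0 and 0, where 11 (9.65%) had an unadjusted p under 0.05 in limma, against 8.73% of all clusters. Their median change was 0.07 for wild type KLF11, 0.13 for A347S, 0.16 for Δ486 and 0.04 for EAPP. KIF9, a kinesin of the central pair, read 6.98 and 6.75 with wild type KLF11, 7.09 and 7.16 with A347S, 6.72 and 6.78 with Δ486, 6.01 and 5.76 with EAPP, and 5.74 and 5.62 with EV, and its changes were 1.19 for wild type KLF11, 1.45 for A347S, 1.07 for Δ486 and 0.21 for EAPP (SE 0.11). DNAAF11, an assembly factor of dyneins, changed by 0.97 for wild type KLF11, 1.20 for A347S, 1.14 for Δ486 and 0.04 for EAPP, and CFAP300, another assembly factor, by 0.96 for wild type KLF11, 0.81 for A347S, 0.79 for Δ486 and 0.02 for EAPP. RIBC2, a protein inside the doublets, stood at 1.01 for wild type KLF11, 0.95 for A347S, 0.63 for Δ486 and 0.10 for EAPP, CFAP206, at the base of a spoke, at 0.82 for wild type KLF11, 1.03 for A347S, 0.81 for Δ486 and 0.02 for EAPP, and CFAP263 at 0.92 for wild type KLF11, 0.99 for A347S, 0.86 for Δ486 and 0.19 for EAPP.
DNAAF9 was the gene of this list that fell with all 3 constructs, at -0.80 for wild type KLF11, -1.01 for A347S and -1.08 for Δ486, and it stood at -0.23 for EAPP. DRC8 and CFAP97 fell with A347S, at -0.72 and -0.68.

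Of 21 measured regulators of motile ciliogenesis, none was called with wild type KLF11 or EAPP (at an unadjusted p under 0.05 in limma, 6 with wild type KLF11, or 28.6% against 29.4% of all clusters, and 2 with EAPP, or 9.52% against 8.73%). With each of A347S and Δ486 1 was called, or 4.76%, against 8.98% of all clusters with A347S and 5.61% with Δ486. ULK4, a kinase-like protein linked to cilia, rose with A347S (0.77) and Δ486 (0.61). Its change was 0.50 for wild type KLF11 and 0.21 for EAPP. At an unadjusted p under 0.05, limma counted 9 with A347S (42.9%, against 37.6% of clusters) and 6 with Δ486 (28.6%, against 34.3%). The 21 ran from -0.33 to 0.50 with wild type KLF11 and from -0.56 to 0.77 with A347S. They ran from -0.35 to 0.61 with Δ486 and from -0.19 to 0.21 with EAPP. Among them, TP73 and the X-box factors RFX2 and RFX3, which act with FOXJ1, lay between -0.09 and 0.12 with all constructs.

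**Figure D4:**
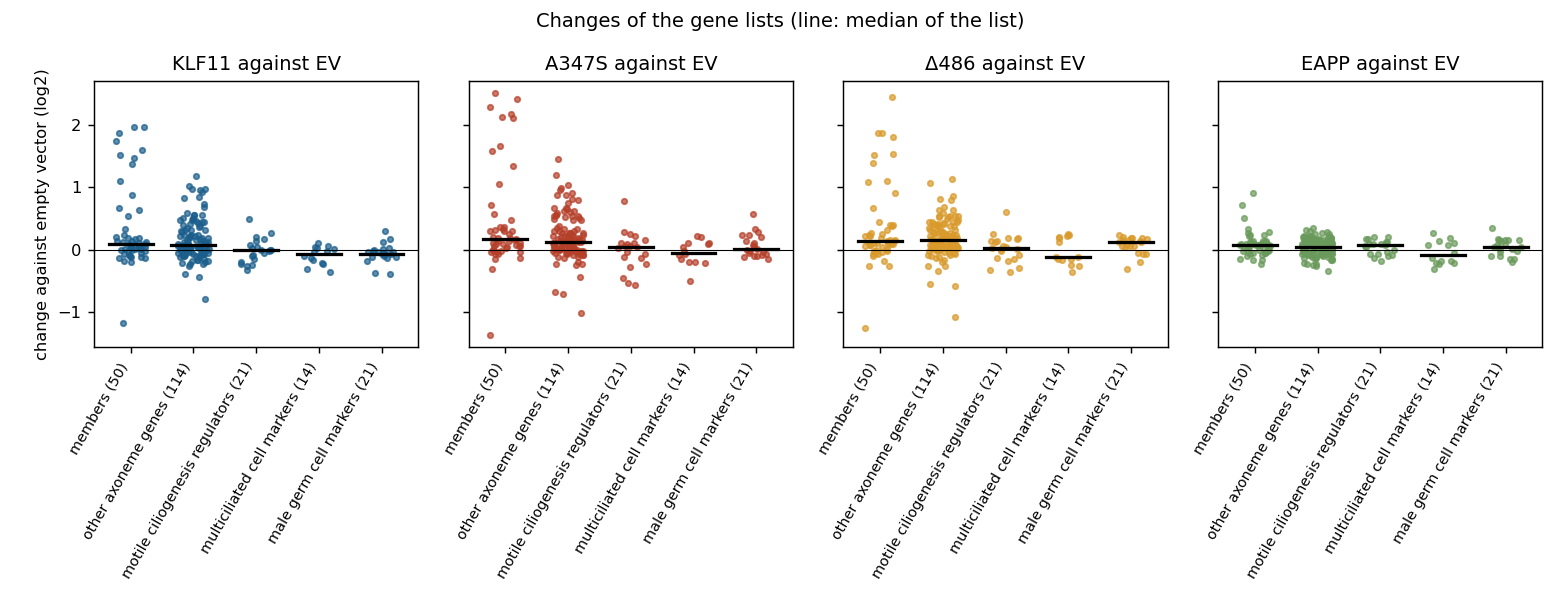
Changes against empty vector (log2) of the genes of 5 lists, 1 point per gene and a line at the list median, in 1 panel per construct. The 50 axoneme genes and the 114 others hold points above 1 with wild type KLF11, A347S and Δ486, and the 14 multiciliated cell markers and 21 male germ cell markers outside the axoneme hold none.

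Markers of multiciliated cells outside the axoneme were not called with any construct (14 measured, changes from -0.51 to 0.26, and 3 to 4 of them per construct at an unadjusted p under 0.05 in limma). That is 21.4% with wild type KLF11, against 29.4% of all clusters, 21.4% with A347S, against 37.6%, 28.6% with Δ486, against 34.3%, and 28.6% with EAPP, against 8.73%. Markers of male germ cells outside the axoneme were not called either (21 measured, changes from -0.39 to 0.57, and 1 to 4 per construct, or 4.76% to 19.0%, at an unadjusted p under 0.05 in limma, each share below that of all clusters). SNTN, which marks the tips of motile cilia, read 2.98 and 3.13 with wild type KLF11, 3.11 and 2.71 with A347S, 3.09 and 3.04 with Δ486, 3.03 and 3.35 with EAPP, and 3.54 and 3.30 with EV. DDX4, a germ cell helicase, lay between 4.18 and 4.50 on all 10 arrays.
None of 6 fibroblast, 5 endothelial or 5 acinar and islet markers was called, where 0 to 2 fibroblast markers, 0 endothelial markers and 0 to 1 acinar and islet markers per construct had an unadjusted p under 0.05 in limma, where the share of all clusters ran from 8.73% with EAPP to 37.6% with A347S. Of 5 leukocyte markers CD14 rose with A347S (0.59), or 20% called, against 8.98% of all clusters. PTPRC lay between 3.44 and 3.75 on all arrays. Of 9 duct markers KRT19, a keratin of duct cells, fell with wild type KLF11 (-0.99), A347S (-1.51) and Δ486 (-1.06), while EAPP gave -0.44. KRT19 thus moved with the same constructs as the axoneme genes, and its part in their change was not tested.

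Some genes of the set lie head to head with another gene. Of the 13 called genes, 8 (61.5%) had a start site on the opposite strand within 1000 bases upstream or up to 100 bases inside the gene, against 14 of 41 measured genes with a promoter (34.1%) and 2790 of 14210 genes (19.6%). The 41 include the 13 called genes. Among the 28 that were not called, only DNAH8, DNAI1, DNAH14, CCDC39, SPAG16 and SPAG17 had such a start. No test was run on these shares, and starts were taken from RefSeq. The partners of 5 called genes were measured, and none was called. LMLN, 226 bases from the start of DRC9, changed by 0.34 for wild type KLF11, 0.48 for A347S, 0.40 for Δ486 and 0.08 for EAPP. GPATCH2, 254 bases from SPATA17, changed by 0.33 for wild type KLF11, 0.40 for A347S, 0.29 for Δ486 and -0.07 for EAPP. EFL1, 84 bases from SAXO2, stood at 0.17 for wild type KLF11, 0.14 for A347S, 0.09 for Δ486 and 0.08 for EAPP, against 1.59 for wild type KLF11, 2.41 for A347S, 1.87 for Δ486 and 0.71 for EAPP for SAXO2 itself. ENTPD5, 61 bases from BBOF1, stood at 0.13 for wild type KLF11, -0.02 for A347S, -0.03 for Δ486 and 0.03 for EAPP, and TOM1L2, 413 bases from DRC3, at -0.06 for wild type KLF11, -0.08 for A347S, -0.17 for Δ486 and -0.11 for EAPP. Each measured partner therefore changed less than the axoneme gene beside it with wild type KLF11, A347S and Δ486. ROPN1L has the noncoding ROPN1L-AS1 starting 28 bases away, which is not measured under that name.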

How the data were processed

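Panc1 RNA from 5 groups was read on Affymetrix Human Gene 1.0 ST arrays, 2 per group. The deposited log2 values were made by the authors with background subtraction and intensity normalization by Robust Multiarray Analysis, and the submitters' processing notes name Partek 6.6. A build for the array annotation was not given in the sources used here. Detection calls are not part of the table, and the number of arrays limits the precision.

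Group means were estimated in 1 model of the 10 arrays (limma 3.58.1, R 4.3.3, 5 residual degrees of freedom and 4.54 from moderation), with Benjamini-Hochberg adjustment over the 20961 clusters that carry a symbol. Another 7908 clusters without a symbol were left out. Clusters that carry several symbols (1732) entered the tests and were not named. Groups are those of the sample labels. Replicate numbers do not pair the arrays, and the check is given with the alternatives.

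The genes of the set, the lists, the roles and the motifs were chosen with earlier results of these data known. Per-array values are given for genes called with wild type KLF11, A347S or Δ486 against empty vector and for FOXJ1, other genes are given by range with the extremes of their role group, and up to 4 rises and 4 falls per construct are named from the other axoneme genes. SNTN, DDX4, PTPRC, ULK4 and the partner genes were named after their values were seen. SPATA17 was placed in its role group after the values had arrived. Promoters and start sites come from RefSeq tables of GRCh38.p14. The fit was tested on simulated data. Alternatives were other thresholds, tests, scalings, cluster choices, a replicate block and each array left out. Python 3.11.15 and matplotlib 3.10.9 made the figures.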

Additional observations from a re-analysis of the deposited data

Results flagged for a closer look

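CFAP44 has a second transcript cluster, dimmer than the one used above and outside the comparisons, whose arrays also stood above empty vector. It read 5.96 and 5.76 with wild type KLF11, 6.13 and 5.97 with A347S, 5.39 and 5.77 with Δ486, 4.73 and 4.63 with EAPP, and 4.55 and 4.55 with empty vector. Its changes were 1.32 with wild type KLF11, 1.51 with A347S, 1.03 with Δ486 and 0.13 with EAPP, and the first 3 passed the threshold. The brighter cluster gave 1.37 for wild type KLF11, 1.58 for A347S, 1.09 for Δ486 and 0.26 for EAPP. Unused clusters of other genes were not called against empty vector, but some differed from the cluster used. An unused DNAH14 cluster gave 0.46 with wild type KLF11 and 0.38 with A347S (SE 0.22), where the used cluster gave 0.09 and 0.16. With wild type KLF11, unused DNAH6 clusters gave -0.31 (SE 0.18), 0.32 and 0.27, where the used cluster gave 0.14.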

How the results depend on the processing

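For the 13 called genes and FOXJ1, none of 49 called changes turned its direction under any alternative, and 20 of 63 uncalled ones did. Some of these turned under other alternatives too, and all 20 did with 1 array left out. Uncalled values with EAPP then ran from -0.09 to 0.61 for CFAP44, from -0.27 to 0.53 for SPATA17 and from -0.17 to 0.32 for DRC3, those of FOXJ1 with wild type KLF11 from -0.06 to 0.10, and those of CFAP69 for Δ486 against wild type KLF11 from -0.35 to 0.38. With a log2 fold change of at least 1.5, the limit in the methods, 6 genes were called with wild type KLF11 (0.129% of all clusters), 8 with A347S (0.296%), 6 with Δ486 (0.153%) and 2 for EAPP against wild type KLF11 (0.0763%). Without a fold threshold, 20 were called with A347S (28.4% of all clusters). At an unadjusted p under 0.05 with 1.5-fold, 2 were counted with EAPP (0.181% of all clusters), 2 for A347S against wild type KLF11 (0.181%) and 2 for A347S against Δ486 (0.105%). The plain test of 2 arrays against 2, after Benjamini-Hochberg adjustment, called 0 with each of wild type KLF11, A347S and Δ486 and 0 for EAPP against wild type KLF11, as it did for every cluster. Without moderation, 7 were called for EAPP against wild type KLF11 (1.83% of all clusters). Trend and robust moderation called 1 with EAPP (CFAP43). After cyclic loess the median change was 0.0735 with Δ486 and 0.0430 with EAPP. With each array centred on its median it was 0.113 with A347S, 0.0653 with Δ486 and 0.0399 with EAPP. Without the dimmest 25% of clusters, which drops 19 of the 50 genes and keeps 31, it was 0.140 for wild type KLF11, 0.295 for A347S and 0.223 for Δ486. The calls without these clusters were 11 with wild type KLF11 (5.1% of the clusters kept), 11 with A347S (11.6%) and 11 with Δ486 (7.21%). Some called genes were thus among those dropped as dim. The causes were not tested.

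Where 1 array was dropped, the remaining array of that group is taken to vary like the rest. Calls then ran from 12 to 13 for wild type KLF11, 12 to 12 for A347S, 11 to 13 for Δ486, 0 to 0 for EAPP and for the other pairs of KLF11, A347S and Δ486, and 10 to 12 for EAPP against wild type KLF11. Median changes ran from 0.0643 to 0.117 for wild type KLF11, 0.141 to 0.184 for A347S, 0.122 to 0.160 for Δ486 and 0.0335 to 0.0751 for EAPP, lowest for EAPP without its first array, which is 0.0335 against 0.0706 with all arrays. Scaling moved the split of calls over all clusters, with 761 higher and 1121 lower for A347S as deposited, 893 and 907 after cyclic loess, and 644 and 1397 with centring. For Δ486 it was 499 and 677, 548 and 573, and 371 and 958. For wild type KLF11 it was 463 and 374, 516 and 313, and 472 and 357. The split of the set stayed at 12 and 1 with wild type KLF11 and 11 and 1 with A347S and Δ486 under each.

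Arrays share replicate numbers only. The correlation of same-numbered arrays' deviations ran from -0.348 to 0.145. With the number as a replicate block the calls were 13 for wild type KLF11, 12 for A347S, 12 for Δ486 and 0 for EAPP, as without it.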
